A study of Mus musculus with 6 samples.

Results

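The 9 genes described here are those of the interleukin-1 system: the ligands Il1a and Il1b, the receptor antagonist Il1rn, the receptor chains Il1r1, Il1r2 and Il1rap, the related cytokine Il18, and Nlrp3 and Casp1, which serve the maturation of interleukin-1β and interleukin-18. They were taken by symbol and make up 9 of the 31053 genes in the deposited matrices. Each symbol was found once. The cells were living CD45-positive leukocytes sorted from the brains of C57BL/6 mice and profiled by droplet single-cell RNA sequencing of transcript 3′ ends. There were 6 libraries: Cd300a-fl/fl mice (called fl/fl) and Cd300a-fl/fl Lyz2-cre mice (called Lyz2-cre), each as naive mice and at 1 h and 3 h of reperfusion following a 60 min filament occlusion of the middle cerebral artery (MCAO). Both genotypes carry the floxed Cd300a alleles. Lyz2-cre expresses Cre recombinase from the Lyz2 locus and so acts in cells of the myeloid lineage, and CD300a is an inhibitory receptor of such cells. Every library was made from 3 pooled brains, and no genotype and time was repeated with another pool. The naive mice carry that name in the sample titles, whereas the series design speaks of 0 h.

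Interleukin-1α and interleukin-1β are made as precursors and act on the same receptor, IL1R1, which signals together with its partner chain IL1RAP through the adaptor MYD88. Interleukin-1α is active as the full-length precursor and can be released by damaged cells, whereas interleukin-1β, like interleukin-18, has to be cut, typically by caspase-1 in inflammasomes such as the one built by NLRP3. The receptor antagonist encoded by Il1rn occupies IL1R1 without signalling, and IL1R2 is a decoy that binds ligand without passing on a signal. Blocking interleukin-1 reduces injury in rodent models of stroke. Transcript counts do not show how much mature cytokine is made or released.

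On GRCm38 with the GENCODE M21 annotation, Il1a (ENSMUSG00000027399) lies on chromosome 2 from 129299610 to 129309972 and Il1b (ENSMUSG00000027398) on chromosome 2 from 129364570 to 129371139, both on the minus strand. Il1rn (ENSMUSG00000026981) lies on the same chromosome from 24336853 to 24351494 on the plus strand. The sequences upstream of the start of these 3 genes are shown because their balance differed between cell classes and times. They run from 250 to 11 bases before a RefSeq start (RefSeq promoter table, build GRCm38.p6), 5′ to 3′ along the gene's strand, at chr2:129309983-129310222 (minus), chr2:129371150-129371389 (minus) and chr2:24336610-24336849 (plus). Il1rn has further starts, and 3′ end counts do not tell which one was used. Capitals mark every match, on either strand, to 3 motifs: TATAAA, a core promoter box, TGANTCA, the site of AP-1 factors, and GGGNNNNNCC, a loose form of the site of NF-kB factors. No match overlapped another in these 3 windows.
Il1a: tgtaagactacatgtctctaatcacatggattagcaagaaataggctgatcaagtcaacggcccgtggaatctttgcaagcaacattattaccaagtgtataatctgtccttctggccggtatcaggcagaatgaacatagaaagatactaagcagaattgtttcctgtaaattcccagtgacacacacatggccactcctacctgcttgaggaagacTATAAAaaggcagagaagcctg
Il1b: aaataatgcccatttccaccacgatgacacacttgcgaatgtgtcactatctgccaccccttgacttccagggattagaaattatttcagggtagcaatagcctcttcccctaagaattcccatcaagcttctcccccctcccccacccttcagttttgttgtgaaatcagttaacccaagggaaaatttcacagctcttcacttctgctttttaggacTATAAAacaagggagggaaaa
Il1rn: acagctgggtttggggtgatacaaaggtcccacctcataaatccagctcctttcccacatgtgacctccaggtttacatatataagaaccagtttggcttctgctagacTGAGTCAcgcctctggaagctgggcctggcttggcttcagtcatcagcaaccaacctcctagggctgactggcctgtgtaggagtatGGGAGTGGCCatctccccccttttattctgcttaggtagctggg

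Il1a and Il1b each had 1 match, the TATAAA at 32 and 31 bases before the start. The Il1rn window shown had no TATAAA and held TGAGTCA at 141 and GGGAGTGGCC at 54 bases before the start. The other Il1rn window of the promoter table, before a start at 24345291, held no match to any of these motifs. Among 32817 promoter windows of the same length, 12.1% held TATAAA, 6.59% held TGANTCA and 44.2% held GGGNNNNNCC. All 9 genes had an entry in the promoter table. The matches describe these letters only.

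The libraries held between 35479437 and 48478866 UMIs (unique molecular identifiers, 1 per captured transcript) and between 6719 and 9611 cells passing filters, with medians of 3902 to 5225 UMIs per cell. Libraries shared 12 to 30 barcodes in each pair, at most 0.412% of the smaller one. None of the 9 genes was used to cluster the cells, and classes were named from marker genes, so each name carries the ending -like. Microglia-like cells made up 70.1% to 87.7% of each library, neutrophil-like cells 2.23% to 15.6% and monocyte-like cells 1.64% to 8.49%, and each of these 3 classes held all markers of its own list in every library (12, 15 and 12 genes). Levels are given in CPM, the UMIs of a gene divided by all UMIs of its class in 1 library and scaled to 1e6, and pairs of values give fl/fl first and Lyz2-cre second. In neutrophil-like cells the 3 fl/fl libraries had Cd300a levels of 175, 254 and 128 CPM and the 3 Lyz2-cre libraries 15.9, 10.4 and 9.86 CPM, so these cells followed their genotype labels. Cd300a was less reduced in monocyte-like cells, at 466, 441 and 181 CPM against 226, 191 and 89.2 CPM. In microglia-like cells, the main class, it was at 172, 212 and 206 CPM against 137, 171 and 163 CPM, so the Lyz2-cre libraries retained most of its transcript there. Whether the counted 3′ ends lie in the deleted part is not given in the sources used here. In such sums, more transcripts per cell and more cells that hold any cannot be told apart. Tests were made across the 6 libraries with genotype and time as terms, in 3 classes (edgeR quasi-likelihood test, Benjamini-Hochberg adjustment over all genes, called under 0.05), with 2 libraries per time. As no pool was repeated, the spread behind these tests is that between pools of different genotype and time once both terms are fitted.

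The interleukin-1 genes were divided among the classes. Microglia-like cells held nearly all Il1a, neutrophil-like cells held most Il1b, Il1rn and Il1r2, and at 3 h the class sums of Il1b, Il1rn, Il1r2 and Nlrp3 were higher than in naive brain in all 3 classes tested. In cluster 12, the larger cluster of the neutrophil-like class, naive and 3 h levels of Nlrp3 overlapped. In microglia-like cells Il1r2 stayed within the range of lymphoid classes. Some of these calls, Nlrp3 in microglia-like cells among them, were lost under an alternative given below. At 3 h against naive, 5 of 9 genes rose and none fell in microglia-like cells (Il1a, Il1b, Il1rn, Il1r2 and Nlrp3), where 24.4% of all 12808 genes tested rose and 23.2% fell. In monocyte-like cells 5 of 8 tested genes rose and Il1a fell, against 14.3% and 13.1% of all 8952 genes. In neutrophil-like cells 6 of 8 rose and none fell, against 18.1% and 11.7% of all 7725 genes. The median log2 fold change over the tested members was 0.55, 1.22 and 2.09 in these 3 classes, beside medians of -0.02, -0.02 and -0.06 over all genes. At 1 h against naive fewer members were called. In microglia-like cells Il1r2 rose and Nlrp3 fell, where 14.0% of all genes rose and 12.8% fell. In monocyte-like cells Il1r2 rose (1.18% of all genes rose and 0.905% fell), and in neutrophil-like cells Il1b and Il1r2 rose (0.971% rose and 0.0259% fell). Between 1 h and 3 h, 5 members rose and none fell in microglia-like cells, against 25.4% and 22.1% of all genes. The counts were 6 and none in monocyte-like cells, against 10.8% and 9.10%, and 6 and none in neutrophil-like cells, against 15.8% and 11.2%. Il1r1 was too low to be tested in monocyte-like and neutrophil-like cells.

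**Figure D1:**
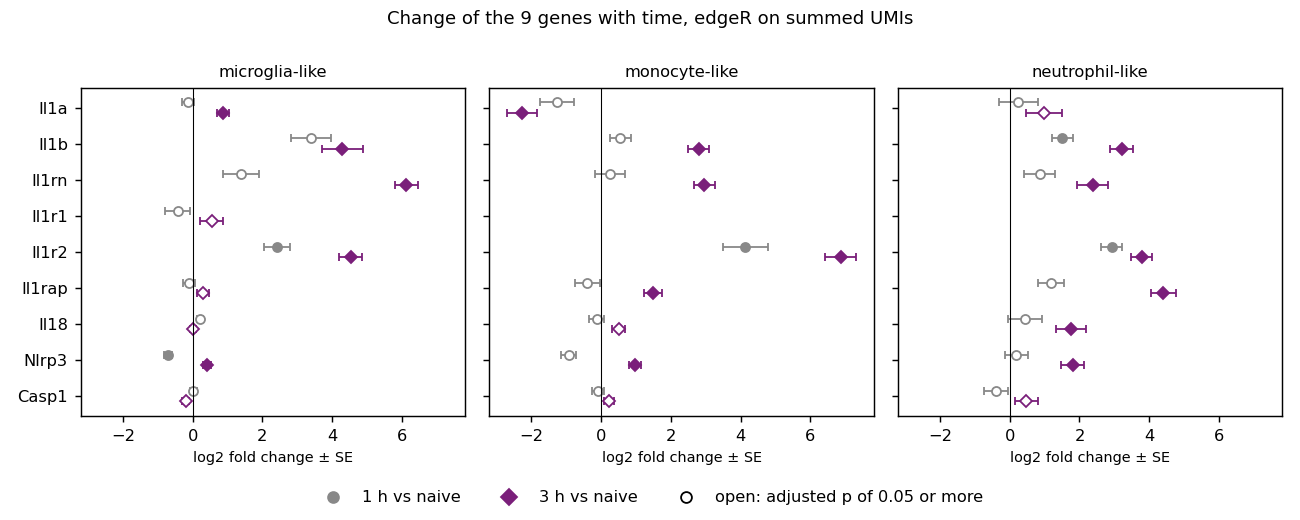
Log2 fold changes with standard errors (horizontal axis) of the 9 genes in microglia-like, monocyte-like and neutrophil-like cells at 1 h and 3 h against naive, from edgeR with 2 libraries per time; filled symbols passed an adjusted p of 0.05 and open symbols did not. Il1rn and Il1r2 lie far to the right at 3 h in all 3 classes, and Il1a lies right of 0 in microglia-like and left of 0 in monocyte-like cells.

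Il1a, the ligand that is active without cleavage, was found chiefly in microglia-like cells. They held 97.0% to 99.1% of its UMIs in every library, while they were 70.1% to 87.7% of the cells. Its level there was 209 and 140 CPM in naive brain, 141 and 145 CPM at 1 h, then 336 and 262 CPM at 3 h. Both 3 h libraries lay above all 4 others, and the naive and 1 h libraries overlapped. The rise was 0.87 ± 0.16 (SE) on the log2 scale against naive (adjusted p = 0.00773, edgeR) and 1.02 ± 0.17 against 1 h (adjusted p = 0.00448), and the change of -0.14 ± 0.17 from naive to 1 h was not called (adjusted p = 0.565). In each library between 30.4% and 50.6% of microglia-like cells had at least 1 Il1a UMI, beside 0% to 2.72% of B-cell-like cells. After thinning every cell to 1000 UMIs these shares were 17.0% and 12.1% in naive brain, 11.3% and 11.5% at 1 h, and 19.6% and 14.5% at 3 h, beside 0% to 2.07% of B-cell-like cells. Median depths were 3904 to 5199 UMIs in microglia-like and 2874 to 3873.5 UMIs in B-cell-like cells. The 10% of cells richest in Il1a held 44.9% and 45.5% of its microglia-like UMIs in naive brain and 60.6% and 69.9% at 3 h.

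Outside microglia-like cells Il1a was lower. Macrophages with border-associated markers had 67.2 and 30.1 CPM in naive brain, 17.2 and 55.8 CPM at 1 h, then 29.1 and 43.7 CPM at 3 h, on 5 to 63 UMIs. All but their fl/fl 1 h library lay above 28.0 CPM, the highest level in B-, T- and NK-cell-like cells. Cells with granulocyte-monocyte progenitor markers had 62.5 and 17.0 CPM in naive brain. In monocyte-like and neutrophil-like cells Il1a was scarce. Monocyte-like cells had 22.3 and 8.26 CPM in naive brain, 7.12 and 4.03 CPM at 1 h, then 2.76 and 2.15 CPM at 3 h, which rest on 18, 15, 8, 8, 14 and 15 UMIs. Each naive library lay above both 3 h libraries, with a fitted log2 fold change of -2.28 ± 0.43 (adjusted p = 0.00281, edgeR). All 6 values lay within the 0 to 28.0 CPM found in B-, T- and NK-cell-like cells, so they do not exceed the level in lymphoid classes. The 12 microglia markers, all above 0 in every library, summed to 3249 and 2058 CPM in these naive monocyte-like cells, 1912 and 2052 CPM at 1 h, then 533 CPM and a similar, slightly lower level at 3 h, and their part in the fall was not tested. With likely doublets kept the change was -0.50 (adjusted p = 0.408), and without the fl/fl naive library it was -1.80 (adjusted p = 0.0712). Neutrophil-like cells held 4.0 to 10.4 CPM of Il1a with no call in any time comparison. With doublets kept their Il1a was at 57.2 and 63.2 CPM at 3 h and 11.8 and 9.13 CPM in naive brain, a called rise of 2.5 on the log2 scale.

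Il1b, the ligand that needs cleavage, was carried mainly by neutrophil-like cells, which held 54.8% to 72.6% of its UMIs in each library while making up 2.23% to 15.6% of cells. Its level in them was 1209 and 883 CPM in naive brain, 4406 and 1566 CPM at 1 h, then 7419 and 8022 CPM at 3 h. The 3 times did not overlap, and the 1 h libraries differed most from each other. Il1b rose by 1.51 ± 0.31 at 1 h (adjusted p = 0.0446, edgeR) and by 3.21 ± 0.33 at 3 h (adjusted p = 4.28e-05). The 1 h call was lost without either naive library or the fl/fl 1 h library, with changes of 1.35, 1.68 and 0.99. At 3 h 93.6% and 94.7% of neutrophil-like cells had an Il1b UMI, and 89.4% and 91.8% after thinning, against 4.10% and 3.40% of B-cell-like cells (0.82% and 0.69% after thinning). Median depths were 2896.5 and 2562 UMIs in neutrophil-like and 3284 and 3025 UMIs in B-cell-like cells.

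The neutrophil-like class joins 2 clusters whose proportions moved with time. Cluster 11, led by the granule genes Ltf, Ngp, Lcn2 and Mmp8, was 33.3% and 41.6% of the class in naive brain, 12.7% and 39.8% at 1 h and 2.65% and 2.61% at 3 h, and cluster 12, with Cxcr2 and Hdc among its leading genes, was the remainder. Il1b in cluster 12 alone was at 2663 and 2484 CPM, 6393 and 4349 CPM, and 8049 and 8671 CPM at the 3 times, again without overlap, and its fitted 3 h rise was 2.08 (adjusted p = 3.87e-06, edgeR). In cluster 11 Il1b was at most 23.3 CPM in the 4 naive and 1 h libraries, and at 3 h its 28 and 26 cells gave 411 and 9.76 CPM.

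Monocyte-like cells held 20.9% and 26.2% of all Il1b UMIs at 3 h. Their Il1b was at 243 and 226 CPM in naive brain, 506 and 199 CPM at 1 h, then 1488 and 1388 CPM at 3 h. Only the 3 h libraries stood clear of the rest, with a rise of 2.80 ± 0.30 against naive (adjusted p = 0.000723, edgeR), and the change of 0.54 ± 0.30 at 1 h was not called (adjusted p = 0.402). Without the Lyz2-cre 1 h library it was 1.11 (adjusted p = 0.00116), and without the fl/fl 1 h library it was near 0. This class too changed in composition: cluster 21, led by Vcan, Fn1 and F10, was 42.7% and 30.6% of it in naive brain, 46.3% and 45.9% at 1 h and 76.7% and 80.3% at 3 h, and cluster 20, with Ace, Cd300e and Treml4, was the remainder. In cluster 21 alone the 3 h rise was 4.04 (adjusted p = 0.0084). The 15 neutrophil markers summed to 243 and 324 CPM in naive and 3199 and 1929 CPM in 3 h monocyte-like cells, beside 210039 and 185723 CPM in 3 h neutrophil-like cells, and their part was not tested. The call was lost without the fl/fl naive library (adjusted p = 0.0933) or the Lyz2-cre naive library (adjusted p = 0.0738).

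Microglia-like cells had low Il1b levels but many cells. Their level was 8.25 and 3.71 CPM in naive brain, 60.6 and 55.7 CPM at 1 h, then 82.9 and 137 CPM at 3 h. The 3 times did not overlap. The change was 3.40 ± 0.58 at 1 h, which missed the threshold (adjusted p = 0.0552, edgeR) and 4.29 ± 0.59 at 3 h (adjusted p = 0.0236). The step from 1 h to 3 h, 0.89 ± 0.48, was not called (adjusted p = 0.258, edgeR). That step was called only without either naive library (0.81) or without the fl/fl 3 h library (1.38). The 1 h change was called with DESeq2 (adjusted p = 8.58e-07), with stricter cells (0.0492) and with time as the only model term (0.016). It was also called without either naive library (4.25 without fl/fl and 2.78 without Lyz2-cre) and without either 3 h library, but not under the other settings or without either 1 h library. The 3 h call was lost without the fl/fl 1 h library (adjusted p = 0.0686) or the Lyz2-cre 1 h library (adjusted p = 0.0741). In microglia-like cells without a single UMI of S100a8, S100a9, Retnlg, Ly6c2, Ccr2 or Plac8, markers of neutrophils and monocytes, the 3 h rise was 4.12 (adjusted p = 0.0491). The share of microglia-like cells with an Il1b UMI was 1.78% and 1.40%, 5.83% and 5.35%, and 9.91% and 10.2% at the 3 times. After thinning to 1000 UMIs it was 0.489% and 0.351%, 2.36% and 2.45%, and 3.78% and 4.21%, against 0.82% and 0.69% of thinned B-cell-like cells at 3 h.

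A small number of cells held a large part of the microglia-like Il1b after reperfusion. Cells with 10 or more Il1b UMIs numbered 2 and 0 in naive brain, 48 and 36 at 1 h and 44 and 101 at 3 h, and held 56.6% and 46.8% of the class's Il1b UMIs at 1 h and 54.2% and 65.0% at 3 h. The richest cell had 155 UMIs. These cells carried microglia markers at medians of 78.5 and 75 UMIs per cell at 3 h, beside 83 and 91 UMIs in cells without Il1b, and neutrophil markers at medians of 1 and 0 UMIs, beside 0 and 0. A neutrophil marker UMI was found in 54.5% and 27.7% of them, against 41.4% and 29.6% of cells without Il1b, and a monocyte marker UMI in 13.6% and 4.95%, against 7.0% and 6.96%. Their part in the Il1b of these cells was not tested. Il1a was spread more widely at 3 h, when 42.8% and 33.3% of microglia-like cells held at least 1 UMI of it. The 10% of cells richest in each gene then held 60.6% and 69.9% of the Il1a UMIs, against 100% and 99.6% of the Il1b UMIs.

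Il1rn, the receptor antagonist, followed Il1b in being mainly a neutrophil-like transcript, with 51.4% to 89.7% of its UMIs there in each library. Its level in neutrophil-like cells was 113 and 126 CPM in naive brain, 274 and 128 CPM at 1 h, then 278 and 808 CPM at 3 h. Naive and 3 h libraries did not overlap, the fl/fl 1 h library was close to the fl/fl 3 h library, and the Lyz2-cre 3 h library stood highest. The rise at 3 h was 2.38 ± 0.45 (adjusted p = 0.00531, edgeR), and the change of 0.86 ± 0.45 at 1 h was not called (adjusted p = 0.51). Without the Lyz2-cre 1 h library the 1 h change was 1.65 (adjusted p = 8.06e-05), without the fl/fl 1 h library it was near 0, and without the Lyz2-cre 3 h library it was called at 0.74 (adjusted p = 0.0291). Without the Lyz2-cre 3 h library the 3 h rise was 1.42 (adjusted p = 0.0333). The rise between 1 h and 3 h, 1.52 ± 0.44 (adjusted p = 0.0363), was lost in cluster 12 alone (1.06, adjusted p = 0.151) and at 0.69 without either Lyz2-cre reperfusion library (adjusted p = 0.164 without 1 h and 0.0582 without 3 h).

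In microglia-like cells Il1rn went from nearly none to a small amount. There were 4 and 9 UMIs in naive brain, 25 and 9 UMIs at 1 h and 408 and 329 UMIs at 3 h, that is 0.143 and 0.295, 0.823 and 0.311, and 19.7 and 11.2 CPM. Both 3 h libraries lay far above the rest. The rise was 6.13 ± 0.34 at 3 h (adjusted p = 3.42e-06, edgeR), and 1.39 ± 0.51 at 1 h missed the threshold (adjusted p = 0.0734). With so few naive UMIs both sizes depend on single libraries: the 3 h rise was 5.20 without the fl/fl and 7.17 without the Lyz2-cre naive library, and the 1 h change was 2.44 without the latter (adjusted p = 0.0494). The 1 h change was also called without either 3 h library, without the low-count filter, with stricter cells and in cells without neutrophil or monocyte marker UMIs. It was not called under the other settings, without the fl/fl naive library, where it was smallest, or without either 1 h library. At 3 h 2.36% and 1.63% of microglia-like cells held an Il1rn UMI (0.918% and 0.639% after thinning). None of the 122 and 147 B-cell-like cells did, which allows shares of cells with a UMI of up to 2.46% and 2.04% (3 counts of the total), and lymphoid classes together had 4 Il1rn UMIs in 2634 cells. Without cells holding neutrophil or monocyte marker UMIs the 3 h levels were 17.9 and 12 CPM.

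Monocyte-like cells had 3.72 and 13.8 CPM of Il1rn in naive brain, 14.2 and 10.1 CPM at 1 h, then 60.9 and 75.8 CPM at 3 h. Their 3 h libraries stood apart, with a rise of 2.96 ± 0.30 (adjusted p = 5.15e-05, edgeR). Both clusters of the class had more at 3 h than in naive brain, 49.6 and 48.8 CPM against 5.45 and 13.7 CPM in cluster 20 and 63.2 and 80.0 CPM against 2.28 and 13.8 CPM in cluster 21.

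**Figure D2:**
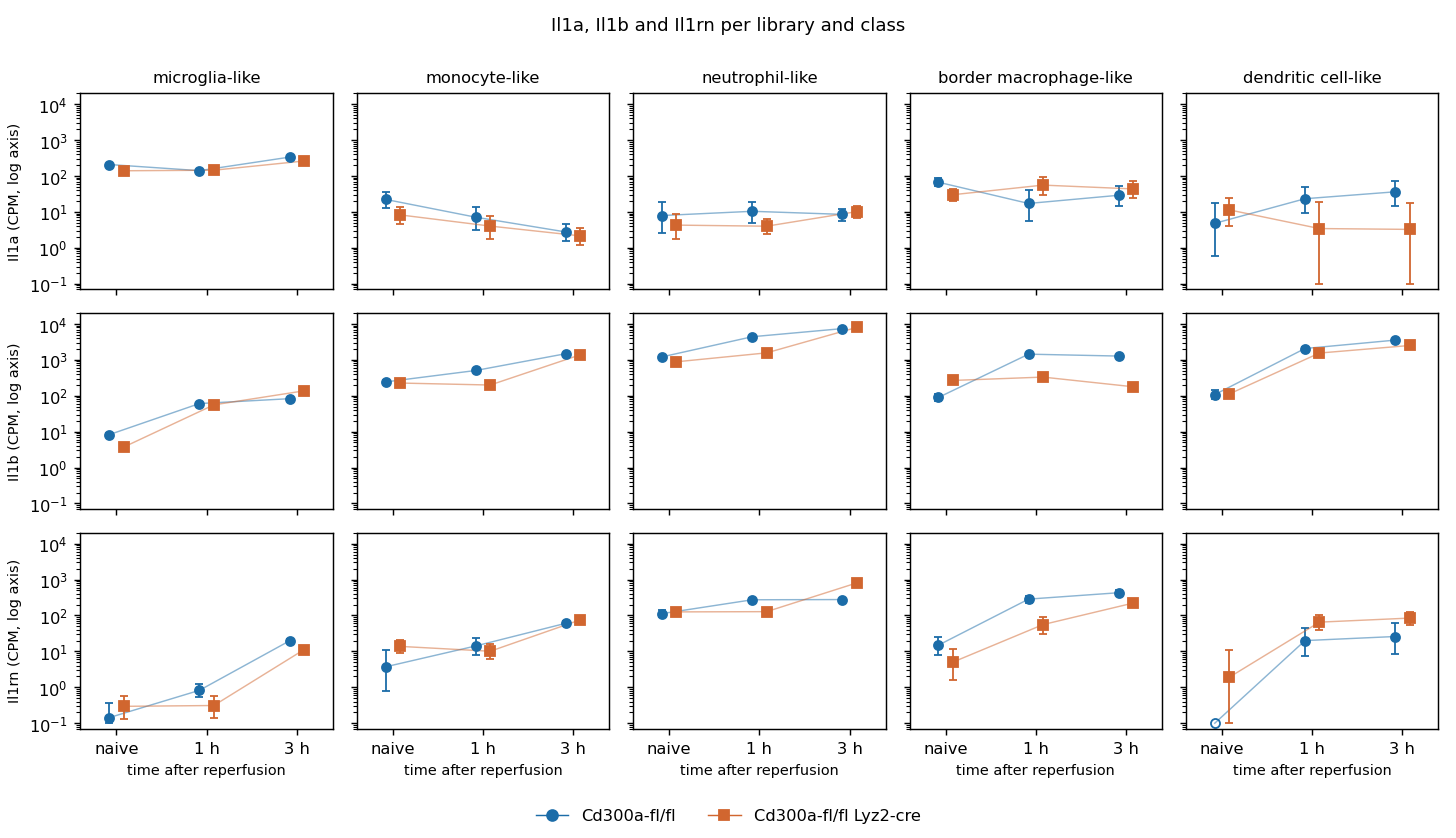
Levels of Il1a, Il1b and Il1rn (CPM of the class, logarithmic axis) by time in 5 classes, 1 point per library with 95% Poisson intervals for counting error and colours for genotype; an open symbol at 0.1 stands for 0 UMIs. Il1a is highest in microglia-like cells at every time, Il1b is highest in neutrophil-like cells, and the naive points of Il1rn lie below the 3 h points in each class.

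The balance of the 3 ligand genes was taken as each gene's share of the summed Il1a, Il1b and Il1rn UMIs of a class. Each UMI stands for 1 captured 3′ end, so the shares need no length correction, while capture may differ between genes. In microglia-like cells Il1a made up 96.1% and 97.2% in naive brain, 69.6% and 72.2% at 1 h and 76.6% and 63.8% at 3 h. Il1b took most of the rest, at 3.80% and 2.58%, then 30% and 27.7%, then 18.9% and 33.4%. Il1rn had 0.0658% and 0.205% in naive brain, 0.407% and 0.155% at 1 h and 4.48% and 2.74% at 3 h. The Il1rn share was thus highest in both 3 h libraries, and Il1a remained the leading gene in all 6. There were 57.8 and 12.6 Il1b UMIs per Il1rn UMI in naive brain, 73.6 and 179 at 1 h and 4.22 and 12.2 at 3 h, where the first 2 times rest on 4 to 25 Il1rn UMIs.

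In neutrophil-like and monocyte-like cells Il1b led the balance in every library. Neutrophil-like cells had 87.1% to 96.3% Il1b and 3.61% to 12.4% Il1rn, the latter 8.47% and 12.4% in naive brain, 5.83% and 7.55% at 1 h and 3.61% and 9.14% at 3 h. These shares overlapped between times, so the balance did not separate them even though both genes rose. The 2 clusters differed: Il1rn was 71.9% to 90% of cluster 11's UMIs in the 4 naive and 1 h libraries, on sums of 24 to 288 UMIs, and 4.95% to 6.93% of cluster 12's. At 3 h cluster 11 had 10.9% and 80.0% on 28 and 26 cells, and cluster 12 had 3.57% and 9.11%. Monocyte-like cells had 90.3% to 96.0% Il1b and 1.38% to 5.54% Il1rn with overlap between times. Averaged over the 2 genotypes at 3 h, the Il1rn share was 3.61% ± 1.23 (SD, n = 2) for the microglia-like class, 4.54% ± 0.884 for the monocyte-like one and 6.38% ± 3.91 for the neutrophil-like one, and these overlap within their spread.

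**Figure D3:**
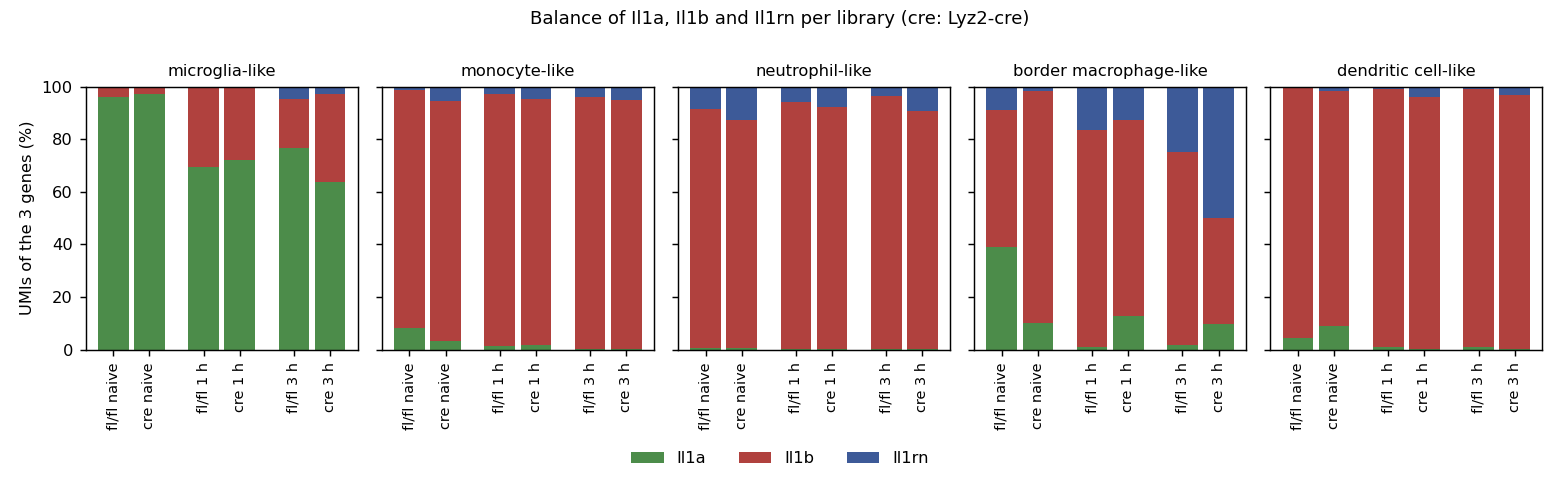
Percent of summed Il1a, Il1b and Il1rn UMIs (stacked bars, 0 to 100) in each of the 6 libraries for 5 classes. Bars of microglia-like cells are mostly Il1a with an Il1b part that is larger in all 4 reperfusion libraries than in both naive ones, and bars of neutrophil-like and monocyte-like cells are mostly Il1b.

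Classes with few cells gave a description only. Macrophages with border-associated markers (38 to 142 cells per library) had Il1b at 89.6 and 267 CPM in naive brain, 1441 and 331 CPM at 1 h, then 1275 and 178 CPM at 3 h, so the Lyz2-cre 3 h library fell within the naive range. Their Il1rn was at 14.9 and 5.02 CPM, 286 and 55.8 CPM, and 431 and 222 CPM, every reperfusion library being above both naive ones. Il1a made up 0.988% to 39.1% and Il1b 40.1% to 88.4% of their 3 genes. Il1rn made up 8.7% and 1.66% in naive brain, 16.4% and 12.6% at 1 h, and 24.8% and 50.0% at 3 h. The 3 h shares of Il1rn were the largest among the 5 classes plotted. A single cell of the fl/fl 1 h library held 154 and one of the fl/fl 3 h library 149 of the 418 and 482 Il1b UMIs of this class. Conventional-dendritic-cell-like cells (19 to 52 per library) had 108 and 112 CPM of Il1b in naive brain, 2070 and 1547 CPM at 1 h, then 3545 and 2512 CPM at 3 h, and Il1b was 89.4% to 98.3% of their balance.

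Microglia-like cells fell into 12 clusters whose Il1a, Il1b and Il1rn differed within a time. At 3 h, over both libraries, cluster 5, led by genes such as Csf1, Ccl3, Ccl4 and Gdf15, had 562 CPM of Il1a, 187 CPM of Il1b and 34.8 CPM of Il1rn. Cluster 19, with Spp1, Gpr84 and Ccl12, had 456, 402 and 19.7 CPM of the same genes, and cluster 6, with the heat shock genes Hspb1 and Hspa1a, had 437, 46.3 and 13.3 CPM. Clusters 7, 13 and 14 had 39.0 to 69.7 CPM of Il1a, 10.6 to 26.5 CPM of Il1b and 0.408 to 1.96 CPM of Il1rn at the same time. The order of the clusters was not the same for the 3 genes: cluster 2 (169 cells) had 333 CPM of Il1a and 101 CPM of Il1b with 3.38 CPM of Il1rn, and cluster 1 (95 cells) had 261, 124 and 68.6 CPM. At 1 h cluster 2 held 276 CPM of Il1a, 126 CPM of Il1b and 0.283 CPM of Il1rn, whereas cluster 0 held 47.6, 2.76 and 0.181 CPM. In naive brain the main cluster, 8, had 169 CPM of Il1a, 3.55 CPM of Il1b and 0.0271 CPM of Il1rn. Cluster and time were closely tied: cluster 8 was 63.6% and 58.6% of naive microglia-like cells, clusters 0 and 2 were 30.1% and 43.8%, and 33.7% and 25.3%, of those at 1 h, and clusters 5 and 19 were 27.9% and 19.8%, and 9.36% and 9.24%, of those at 3 h.

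Ligand and antagonist were also detected in the same cells. With cells thinned to 1000 UMIs, Il1rn was found at 3 h in 23.1% and 48.6% of neutrophil-like cells with Il1b and in 10.9% and 27.5% of those without. In monocyte-like cells the shares were 12.6% and 9.22% against 1.49% and 4.16%, and in microglia-like cells 2.82% and 2.97% against 0.843% and 0.536%. The share was higher among Il1b-positive cells in both 3 h libraries of each class. In microglia-like cells this rests on 5 and 9 cells with both genes.

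Il1r2, the decoy receptor, was the receptor gene with the highest levels, and its main carrier was again the neutrophil-like class, with 75.1% to 91.0% of its UMIs in each library. Its level there was 125 and 109 CPM in naive brain, 1079 and 589 CPM at 1 h, then 1024 and 1612 CPM at 3 h. All 4 reperfusion libraries were above both naive ones, and the 1 h and 3 h libraries overlapped. The rise was 2.92 ± 0.30 at 1 h (adjusted p = 0.00115, edgeR) and 3.78 ± 0.31 at 3 h (adjusted p = 1.12e-05). The step from 1 h to 3 h, 0.85 ± 0.28 (adjusted p = 0.0389), was 0.26 in cluster 12 alone (adjusted p = 0.465). That call was also lost with doublets kept (0.52, adjusted p = 0.186). It was lost as well without either naive library (0.88) and without either Lyz2-cre reperfusion library (0.46). In thinned cells Il1r2 was found in 59.5% and 69.5% of neutrophil-like cells at 3 h and in 0% and 1.38% of B-cell-like cells. The few conventional-dendritic-cell-like cells (19 to 52 per library) had 16.8 and 9.5 CPM of Il1r2 in naive brain. They had 562 and 292 CPM at 1 h, then 72.7 and 414 CPM at 3 h, and this class was not tested.

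Monocyte-like cells went from 4 and 0 Il1r2 UMIs in naive brain (4.96 and 0 CPM) to 32.9 and 22.7 CPM at 1 h, then 165 and 167 CPM at 3 h. The 3 times were separate. The rise was 4.13 ± 0.64 at 1 h (adjusted p = 0.00981, edgeR) and 6.87 ± 0.45 at 3 h (adjusted p = 3.4e-06), and with so few naive UMIs the size of either depends on the model. Without the Lyz2-cre naive library they were 2.55 (adjusted p = 0.0576) and 5.31. Microglia-like cells had 0.214 and 0.197 CPM in naive brain, 1.15 and 0.934 CPM at 1 h, then 5.49 and 3.79 CPM at 3 h. Their rise of 4.53 ± 0.32 at 3 h was called (adjusted p = 7.75e-06, edgeR), but every value lay within the 0 to 16.3 CPM of lymphoid classes, and at 3 h 0.47% and 0.333% of thinned cells held a UMI, no more than the highest B-cell-like share.

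Il1rap, the signalling partner chain, changed most in neutrophil-like cells and most strongly at 3 h. Its level there was 20.6 and 26.9 CPM in naive brain, 75.9 and 34.9 CPM at 1 h, then 336 and 531 CPM at 3 h. The times were separate, and the 3 h libraries were far above the others. The change was 1.18 ± 0.37 at 1 h (adjusted p = 0.213, edgeR; 1.5 and called in cluster 12 alone, adjusted p = 0.0202) and 4.40 ± 0.36 at 3 h (adjusted p = 1.85e-05). Monocyte-like cells had 8.68 and 13.2 CPM, 8.90 and 8.06 CPM, and 28.6 and 28.3 CPM at the 3 times, a rise of 1.48 ± 0.26 at 3 h (adjusted p = 0.00161). In microglia-like cells Il1rap lay between 3.59 and 5.11 CPM in all 6 libraries, within the lymphoid range of 0 to 11.2 CPM, and no change was called.

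Il1r1, the signalling receptor, was near the limit of detection. Microglia-like cells held 15 to 33 UMIs of it per library, or 0.519 to 1.25 CPM, monocyte-like cells 0 to 12 UMIs and neutrophil-like cells 0 to 4 UMIs. T-cell-like cells had the highest lymphoid levels, from 1.60 to 9.80 CPM on 1 to 20 UMIs. The 3 h libraries of microglia-like cells were at 1.25 and 1.13 CPM and the 1 h libraries at 0.658 and 0.519 CPM, a change of 0.98 ± 0.35 (adjusted p = 0.0426, edgeR). That call was lost with DESeq2 (adjusted p = 0.27) and without any one library. The data hold sorted leukocytes only, so Il1r1 in endothelial cells, neurons or astrocytes was not measured.

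**Figure D4:**
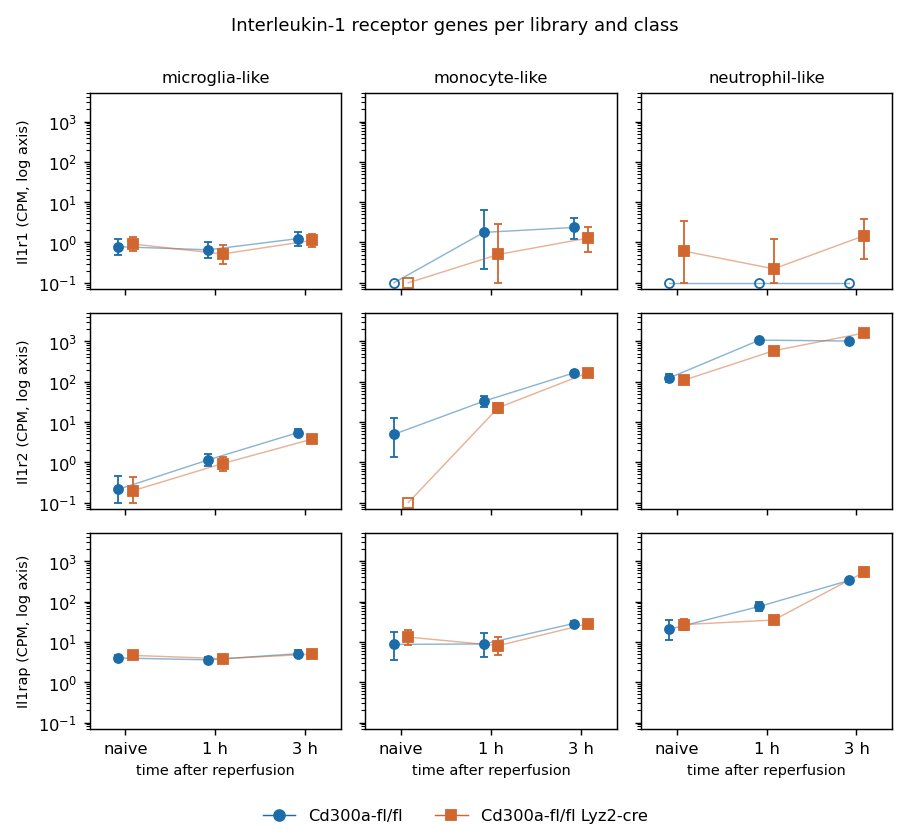
Levels of Il1r1, Il1r2 and Il1rap (CPM of the class, logarithmic axis) by time in microglia-like, monocyte-like and neutrophil-like cells, 1 point per library with 95% Poisson intervals; open symbols at 0.1 stand for 0 UMIs. Il1r2 reaches 1612 CPM and Il1rap 531 CPM in neutrophil-like cells at 3 h, whereas Il1r1 stays below 2.5 CPM in all 3 classes.

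Nlrp3, the sensor of the inflammasome, fell and then rose in microglia-like cells. It was at 99.9 and 80.9 CPM in naive brain, 53.2 and 50.0 CPM at 1 h, then 105 and 121 CPM at 3 h, without overlap between times. The changes were -0.70 ± 0.11 at 1 h (adjusted p = 0.00259, edgeR), 0.41 ± 0.11 at 3 h (adjusted p = 0.0129) and 1.11 ± 0.11 from 1 h to 3 h (adjusted p = 0.000113). The 1 h fall was -0.50 without the fl/fl naive library (adjusted p = 0.0516), and the 3 h call was lost at 0.18 without the Lyz2-cre naive library (adjusted p = 0.222) and at 0.20 without the Lyz2-cre 3 h library (adjusted p = 0.116). Monocyte-like cells followed the same order, with 63.3 and 52.3 CPM, 26.7 and 29.2 CPM, and 90.1 and 101 CPM. There the 1 h change of -0.93 ± 0.22 missed the threshold (adjusted p = 0.0548, edgeR), and the 3 h rise of 0.96 ± 0.17 passed it (adjusted p = 0.00213). The 3 h rise was 0.71 and not called without the Lyz2-cre naive library. The 1 h fall was called without the low-count filter (adjusted p = 0.00347, edgeR), with stricter cells (0.0465) and with time as the only model term (0.0223). It was also called without either 3 h library (-0.93), but not under the other settings or without a naive or 1 h library. Neutrophil-like cells had 88.9 and 60.6 CPM, 121 and 46.9 CPM, and 163 and 249 CPM. Their naive and 1 h libraries overlapped, and the 3 h rise was 1.80 ± 0.33 (adjusted p = 0.00284), or 0.81 in cluster 12 alone (adjusted p = 0.0327). In that cluster Nlrp3 was at 179 and 149 CPM in naive brain and 174 and 268 CPM at 3 h. Naive and 3 h libraries thus overlapped there, and only the Lyz2-cre level was higher at 3 h.

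Il18 and Casp1 had few called changes. Il18 in microglia-like cells was between 42.6 and 53.4 CPM in every library, with a 3 h change of 0.00 ± 0.09 (adjusted p = 1, edgeR), and in monocyte-like cells between 25.8 and 45.2 CPM. In neutrophil-like cells it was at 6.35 and 4.90 CPM, 8.32 and 5.77 CPM, and 14.7 and 16.1 CPM, with the 3 h libraries on top and a rise of 1.76 ± 0.44 (adjusted p = 0.0105). The 3 h values lie just above the lymphoid maximum of 14.2 CPM, and the call was lost with DESeq2 (adjusted p = 0.0747), in cluster 12 alone (adjusted p = 0.0876) and without the fl/fl naive (adjusted p = 0.0622) or the Lyz2-cre naive library (adjusted p = 0.13). In monocyte-like cells Il18 rose by 0.63 ± 0.18 between 1 h and 3 h (adjusted p = 0.0346), a call lost with DESeq2 (adjusted p = 0.318), in cluster 21 alone (0.31, adjusted p = 0.294) and without any one of the 4 reperfusion libraries (adjusted p = 0.14 to 0.201). Casp1, the protease that cuts both cytokines, was highest in monocyte-like cells (78.6 to 109 CPM), lower in microglia-like cells (32.4 to 42.2 CPM) and between 17.7 and 42.8 CPM in neutrophil-like cells. In both latter classes Casp1 lay within the lymphoid range of 10.2 to 64.3 CPM. Its change was not called in any class or comparison of the edgeR test, the largest being 0.87 ± 0.32 in neutrophil-like cells between 1 h and 3 h (adjusted p = 0.0664). That one was called with median-ratio factors (adjusted p = 0.0487), without the low-count filter (0.0106) and with time as the only model term (0.0497). It was also called at 0.95, 1.67 and 1.21 without the Lyz2-cre naive, 1 h or 3 h library, and was 0.41 without the fl/fl 1 h library (adjusted p = 0.407). The other settings, DESeq2 among them, did not call it. In microglia-like cells Casp1 was called lower at 3 h than at 1 h without the low-count filter (-0.25, adjusted p = 0.0446, edgeR). Without the fl/fl 3 h library it was called lower at 3 h than in naive brain and than at 1 h (-0.35 each).

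**Figure D5:**
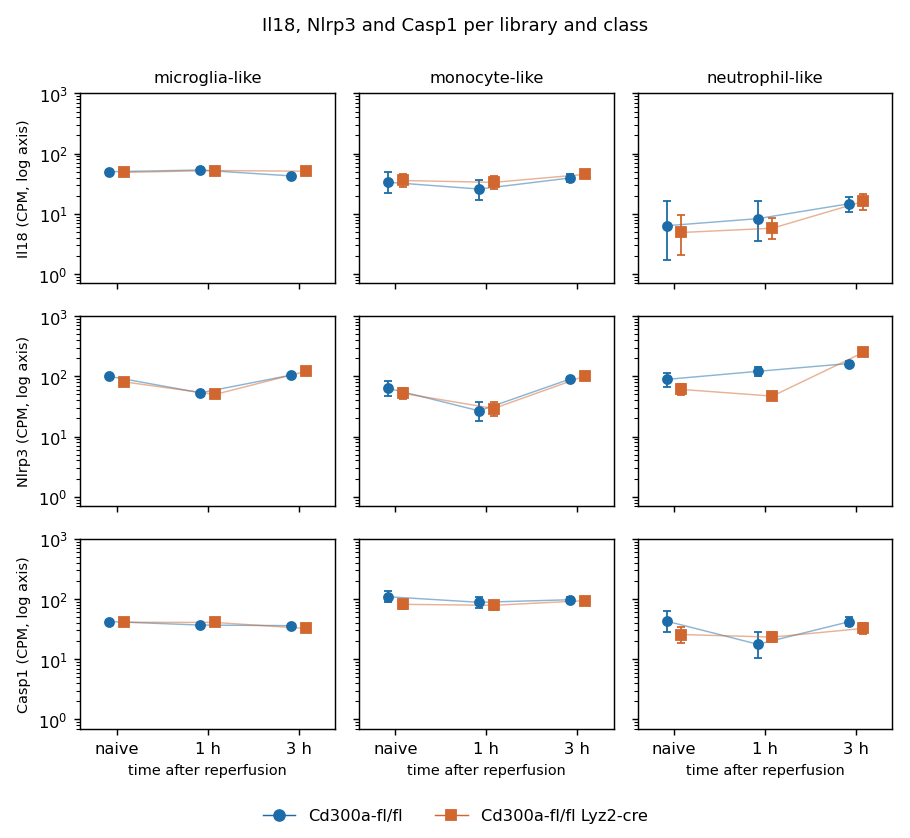
Levels of Il18, Nlrp3 and Casp1 (CPM of the class, logarithmic axis) by time in microglia-like, monocyte-like and neutrophil-like cells, 1 point per library with 95% Poisson intervals. Nlrp3 is lowest at 1 h in microglia-like and monocyte-like cells, and Casp1 of monocyte-like cells lies between 78.6 and 109 CPM at all times.

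Between Lyz2-cre and fl/fl mice no member was called in any of the 3 classes (edgeR, 3 libraries per genotype), where 0.0468% of all genes were higher and 0.422% lower in microglia-like, 0.0112% and 0.0447% for the monocyte-like class, and 0.00% and 0.0259% for the neutrophil-like class. In microglia-like cells that comparison is between libraries with nearly as much Cd300a transcript in both genotypes. The genotypes also differed in Lyz2 itself, at 210 and 0.328 CPM in naive microglia-like cells. Its naive levels were 25799 and 29.2 CPM in monocyte-like and 13082 and 47.7 CPM in neutrophil-like cells. The parts of Cd300a and Lyz2 in a difference between genotypes cannot be told apart. DESeq2 called no member either. At an unadjusted p under 0.05 there were 2 members in microglia-like cells, 1 in monocyte-like cells and 0 in neutrophil-like cells. The 2 were Il1a, at -0.36 ± 0.13 (adjusted p = 0.45), lower in the Lyz2-cre library at naive and 3 h and slightly higher at 1 h, and Il1rn, at -0.84 ± 0.25 (adjusted p = 0.293), lower at 1 h and 3 h and higher in naive brain. Without a filter on low counts Il1rn was called (-0.82, adjusted p = 0.0383). The one in monocyte-like cells was Il1a as well, at -0.91 ± 0.38 (adjusted p = 0.982). Il1b there was at -0.52 ± 0.24 (adjusted p = 0.982) and was called at -0.76 without either 3 h library (adjusted p = 0.00867 without fl/fl and 0.00964 without Lyz2-cre). In neutrophil-like cells Il1rn was at 0.36 ± 0.37 (adjusted p = 0.938) and was called at 0.96 without the fl/fl 1 h library (adjusted p = 0.0453). Differences between the genotypes at a single time rest on 1 library each and were not tested.

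Other genes of interleukin-1 signalling were counted against all genes. Of 20 such genes (adaptors, kinases, related receptors and decoys), 6 rose and 2 fell of 17 tested in microglia-like cells at 3 h against naive, 3 rose and 1 fell of 15 in monocyte-like cells, and 6 rose and 0 fell of 14 in neutrophil-like cells. Myd88, the adaptor below IL1R1, rose by 0.91 ± 0.16 in the monocyte-like class (adjusted p = 0.00191) and by 1.89 ± 0.24 in the neutrophil-like class, in the latter from 71.4 and 50.8 CPM to 179 and 185 CPM. Traf6, a ubiquitin ligase further down the same route, rose by 2.04 ± 0.43 in neutrophil-like cells. Il18rap, a chain of the interleukin-18 receptor, rose by 1.39 ± 0.29 in neutrophil-like cells, and in monocyte-like cells went from 0 UMIs in both naive libraries to 318 UMIs at 3 h, at least 23.1-fold higher against a floor of 3 UMIs over the naive group. Il18bp, a soluble binder of interleukin-18, rose by 0.79 ± 0.20 in microglia-like cells (adjusted p = 0.00859), and Tab1 fell by 0.74 on the log2 scale (SE 0.13), as did Tab2 by 0.79 in monocyte-like cells (SE 0.16). TAB1 and TAB2 are partners of the kinase TAK1. Over all genes 24.4% rose and 23.2% fell in the first class, 14.3% and 13.1% in the second and 18.1% and 11.7% in the third. The counts of the list in monocyte-like cells are near these shares. In the other classes the list had a larger share that rose and a smaller share that fell. The list is short, and its difference from all genes was not tested. The median change over the list was 0.11, -0.22 and 0.69 in the 3 classes, beside -0.02, -0.02 and -0.06 over all genes.

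Of 18 genes of inflammasomes and cytokine release, 4 rose and 4 fell of 17 tested in microglia-like cells, 6 rose and 3 fell of 18 in monocyte-like cells, and 3 rose and 1 fell of 14 in neutrophil-like cells, with medians of 0.00, -0.25 and 0.04. Over all genes at 3 h against naive 24.4% rose and 23.2% fell in microglia-like cells. These shares were 14.3% and 13.1% in monocyte-like and 18.1% and 11.7% in neutrophil-like cells. In microglia-like and neutrophil-like cells the counts of the list are near the shares of all genes in both directions. Casp4, which encodes caspase-11, the sensor of the noncanonical inflammasome, rose in all 3, by 1.01 ± 0.12, 1.25 ± 0.18 and 3.29 ± 0.27, and Mefv, which encodes the sensor pyrin, rose by 1.48 ± 0.18 in the monocyte-like class and by 3.72 ± 0.38 in the neutrophil-like class. In microglia-like cells Mefv had 1 and 0 UMIs in naive brain and 39 and 21 UMIs at 3 h. Ninj1, which mediates membrane rupture, rose there by 1.40 ± 0.11, and Gsdmd, the pore former, and Pycard, the inflammasome adaptor, fell by 0.58 and by 0.40 on the log2 scale (SE 0.09 each). Pycard rose by 0.80 ± 0.14 in monocyte-like cells and fell by 1.13 on the log2 scale in neutrophil-like cells (SE 0.28). Txnip, whose product can bind NLRP3, rose by 1.35 ± 0.30 in neutrophil-like cells. In monocyte-like cells Aim2, a sensor of cytosolic DNA, fell by 1.22 on the log2 scale (SE 0.19). At 1 h, 1 and 0 and 0 signalling genes rose and 4, 0 and 0 fell in the 3 classes, and 2, 2 and 0 inflammasome genes rose and 5, 0 and 0 fell. Over all genes at 1 h, 14.0%, 1.18% and 0.971% rose and 12.8%, 0.905% and 0.0259% fell. No gene of either list was called between the genotypes.

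The genes most like the 3 ligand genes were sought by Pearson's r of log2(CPM + 1) over 52 sums of a class and library, which share libraries and depth, among 8188 genes. Il1a was most like Sall3 (r = 0.88), Tgfbr1 (0.87) and Slco2b1 (0.85). Il1b was most like Snap23 (0.89), Ccr1 (0.86) and Ndel1 (0.86), and Il1rn was most like Thbs1 (0.90), Cxcl2 (0.88) and Ndel1 (0.87). These values describe a pattern that is mostly one between classes.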

How the data were processed

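The authors deposited raw UMI counts per gene and cell for 6 libraries of the 10x Genomics 3′ version 3 chemistry, 1 per genotype and time, made with Cell Ranger 3.0.2 on mm10, per the submitters' processing notes. From these counts, barcodes under 300 genes or over 10% mitochondrial UMIs were dropped (leaving 50634 of 51005), and 3557 were removed by Scrublet rank, at 0.8% per 1000 barcodes, because its automatic threshold marked only 433. Cells were normalized to 10000 UMIs and clustered with scanpy 1.11.5 on 1995 variable genes, the 5 members among the top 2000 being left out (30 components, 15 neighbours, Leiden resolution 1), giving 23 clusters, 1 of them split again in 12. Clusters were named from marker lists into 10 classes, and clusters too mixed or poor in markers stayed unnamed.

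UMIs were summed per library and class and tested with edgeR 4.0.16 (quasi-likelihood, robust, TMM factors, filterByExpr, R 4.3.3) with terms for genotype and time, 2 residual degrees of freedom, and Benjamini-Hochberg adjustment over all genes tested. SE is the absolute log2 fold change over the square root of F. The test was also run on simulated counts with 1 fixed spread for all genes and with changes only at 3 h, in genes with many UMIs. That run does not show how the test does for genes with few UMIs or a larger spread. TMM factors add 0.07 to 0.13 to a log2 change at 1 h and 0.08 (microglia-like), 0.19 (monocyte-like) and 0.30 (neutrophil-like) at 3 h over the raw CPM ratio. Classes with under 20 cells in a library were not tested, nor were macrophages, dendritic or lymphoid cells. Intervals are 95% Poisson or Clopper-Pearson intervals and cover counting error only. The floor for a count of 0 is 3 UMIs. Thinning drew 1000 UMIs per cell and left out shallower cells.

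The text names the 9 members, the 3 genes of each of 2 pathway lists with the largest called changes in each class, Pycard and Gsdmd besides (chosen after their values were seen), and the 3 genes most like each ligand gene (mean of at least 10 CPM, pseudocount 1). Members and lists were chosen with earlier results of these data known. Alternatives were DESeq2 1.42.0, median-ratio factors, no low-count filter, stricter cells (500 genes, 5%), doublets kept, a single model term, each library left out, cells without neutrophil or monocyte marker UMIs and, added after seeing the data, cluster 21 or 12 alone.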

Additional observations from a re-analysis of the deposited data

Results flagged for a closer look

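Il1a moved in opposite directions in 2 classes between naive brain and 3 h. In microglia-like cells both 3 h libraries lay above both naive ones, with a log2 change of 0.87, and in monocyte-like cells both lay below, with a log2 change of -2.28. The difference between the classes was itself not tested. The monocyte-like values rest on 8 to 18 UMIs per library and do not exceed the level in lymphoid classes, and the microglia markers in monocyte-like cells moved the same way, from 3249 and 2058 CPM to 533 CPM and a similar, slightly lower level. Their part was not tested.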

How the results depend on the processing

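Of 100 tests of a member in a class and comparison, 39 were called, and 23 of these kept the call in every alternative run. Over 1300 results under an alternative, 1199 kept direction and side of the threshold, 52 lost a call, 49 gained one and 0 changed sign in a called value. The cause was not tested. Counts of members called moved most at 1 h against naive: with stricter cells they were 4 in microglia-like (2 in the report), 2 for monocyte-like cells (1) and 1 for neutrophil-like cells (2). With 1 term in the model the latter were 2 and 1, and without the low-count filter monocyte-like cells had 2. That last setting gave 1 microglia-like call between genotypes, and cluster 12 alone gave 3 neutrophil-like calls between 1 h and 3 h (6). Leaving out 1 library at a time gave 1 to 5 microglia-like, 0 to 2 monocyte-like and 1 to 4 neutrophil-like calls at 1 h against naive, and between genotypes 0, 0 to 1 and 0 to 1. At 3 h against naive it gave 4 to 6, 4 to 6 and 5 to 6, and between 1 h and 3 h 4 to 6, 5 to 6 and 4 to 6. The Il1rn share of the balance at 3 h stayed within 1 SD of the 2 libraries in every alternative run. For runs that left out a library this outcome was fixed in advance. Either of 2 libraries lies within 1 SD of their mean, and the naive and 1 h libraries do not enter the 3 h share. No paired analysis was possible because each genotype and time has 1 library; the model's genotype term stands in its place. Depth limits Il1r1 in all classes, Il1a in monocyte-like and neutrophil-like cells and naive Il1rn and Il1r2 in microglia-like and monocyte-like cells, where the sums hold few UMIs and intervals are wide.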
